A study of Mus musculus with 15 samples.

Results

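The SMAD family genes Smad1, Smad2, Smad3, Smad4, Smad5, Smad6, Smad7 and Smad9 were followed through 5 groups of mouse lung. Members were all probe sets whose platform annotation names exactly 1 of these 8 genes. There were 18 of them, among 34945 probe sets with a single gene symbol and 18193 genes. Smad1, Smad3, Smad4 and Smad5 had 3 probe sets each, Smad2 and Smad7 had 2, and Smad6 and Smad9 had 1.

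SMAD proteins carry signals of the TGF-beta and BMP families from the cell surface to the nucleus. Receptor-regulated SMADs are phosphorylated by the activated receptor: Smad2 and Smad3 mainly by TGF-beta and activin receptors, Smad1, Smad5 and Smad9 mainly by BMP receptors. They then bind Smad4, the common partner of both branches, and enter the nucleus to regulate target genes. Smad6 and Smad7 are inhibitory SMADs, which are themselves induced by these signals and act back on the receptors. In lung the pathway is known for roles in branching, in epithelial differentiation, in vessels and in scarring.

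Each group held 3 arrays, numbered 1 to 3 and always given in that order. All mice were of mixed background, had normal feed and had no treatment. At 12 months, part of the whole lung of wildtype mice was set beside part of single lung tumours of Ptend/dSmad4d/d mice. At 7 months, which the series design places before tumours start, parts of whole lungs of wildtype, Ptend/d and Ptend/dSmad4d/d mice were taken. No group carried the Smad4 change alone, so Ptend/dSmad4d/d against Ptend/d is the comparison in which Smad4 is the one labelled difference, and there was no Ptend/d tumour group. The promoter that drives the recombinase, and so the cells in which the alleles are deleted, is not stated in the sources used here. Each array reads a mixture of lung cell types, so fewer cells of a type and less RNA per cell cannot be told apart.

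The arrays carried a lung profile: the alveolar gene Sftpc read 11450 to 13081 and the club cell gene Scgb1a1 read 14428 to 16192 on all 15. Both lie toward the top of the intensity scale, whose highest value was 17030. Ager, another alveolar gene, read 8356 to 8804 on wildtype arrays of 12 months and 5377, 7257 and 2716 in the tumours. The alveolar gene Sftpa1 read 13145 to 13629 on those wildtype arrays and 9900, 13610 and 6026 in the tumours. Median intensity ran from 90.9 to 99.5, and arrays of a group correlated at 0.984 to 0.995 over probe sets. Several properties moved with the groups. Intensity for 18S ribosomal RNA, a control on the array, was 1094 to 1953 on tumour arrays against 5339 to 6772 on wildtype arrays of 12 months. On 2 of the 3 wildtype arrays of 12 months Xist was high and the Y-linked Uty low, and the third and all 3 tumours had the opposite pattern. At 7 months 8 of 9 arrays read both genes, as RNA of both sexes would, and 1 wildtype array read Uty without Xist. Pooling of animals is not stated in the sources used here, so the spread between arrays may not mean the same at both ages. The part of these properties in the results was not tested, except where a value without the arrays concerned is given.

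Loss of Smad4 was not visible as a lower Smad4 intensity in either group labelled Ptend/dSmad4d/d. The group means of all 3 Smad4 probe sets lay above wildtype of the same age in both groups, and 1 probe set rose in the tumours. Smad4 probe set 1422487_at read 2659, 2753 and 2482 on the wildtype arrays of 12 months and 3577, 3222 and 3477 on the tumour arrays. Every tumour array lay above every wildtype array. The difference was 0.38 ± 0.09 (SE) on the log2(intensity + 16) scale, or 1.30-fold, with a 95% confidence interval of 0.17 to 0.59 and an adjusted p of 0.0439 by limma, a linear-model method that shares the estimate of spread between probe sets. Here and below, limma p-values were adjusted over all 34945 probe sets and a probe set was called at an adjusted p under 0.05. The call was narrow: it held in 7 of 16 settings, with differences of 0.31 to 0.42 and adjusted p of 0.00158 to 0.337. With sex as a block the Smad4 difference was 0.31. All tumours had 1 sex pattern, so this is in effect the difference from the 1 wildtype array with that pattern. Leaving out the other wildtype arrays gave the same 0.31 by construction. The call was lost when any single array was left out (adjusted p 0.0935 to 0.128), except for tumour 2 (adjusted p 0.0412).

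The other 2 Smad4 probe sets gave smaller differences in the tumours and were not called. Probe set 1422485_at read 2147, 2168 and 2019 in wildtype lung and 2564, 2345 and 2552 in the tumours (log2 difference 0.23 ± 0.08, adjusted p = 0.134). Probe set 1422486_a_at, the brightest, read 2870, 2924 and 2664 in wildtype lung and 3688, 2965 and 3255 in the tumours (0.22 ± 0.11, adjusted p = 0.243). In both, the tumours lay above wildtype on every array.

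At 7 months no Smad4 probe set had a lower mean on the arrays labelled Ptend/dSmad4d/d than on the wildtype arrays. Smad4 1422487_at read 3003, 2785 and 2857 in wildtype lung, 2638, 2746 and 2707 in Ptend/d lung, and 3142, 3126 and 3064 in Ptend/dSmad4d/d lung. The 3 groups did not overlap, with Ptend/dSmad4d/d highest and Ptend/d lowest. Against wildtype the log2 difference of Ptend/dSmad4d/d lung was 0.11 ± 0.06 (adjusted p = 0.395). Its 95% interval runs from -2.29% to 19.3% relative to wildtype. The interval of Smad4 1422485_at starts at -2.86% and that of 1422486_a_at at -7.37%, so changes below -7.37% lie outside the intervals of all 3 probe sets.

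Against Ptend/d lung, where only the Smad4 label differs, Smad4 1422487_at was 0.20 ± 0.06 higher on the log2 scale (1.15-fold, 95% interval 0.06 to 0.35, adjusted p = 0.163). Smad4 1422486_a_at read 2944, 2926 and 2943 in Ptend/d lung and 3345, 3364 and 3166 in Ptend/dSmad4d/d lung, again without overlap (0.16 ± 0.06, adjusted p = 0.244). Smad4 1422485_at gave 0.01 ± 0.09 (adjusted p = 0.980), with an interval from -13.1% to 16.2%. None of these was called. With a variance trend and robust fitting, 1422487_at alone was called (adjusted p = 0.0414, against 0.0414 to 0.358 over all settings).

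These intensities do not check the genotype labels. The labelling protocol starts at the poly(A) tail and reads mostly the 3' end of a transcript, and the position of the Smad4 probe sets against the deleted stretch of the gene is not stated in the sources used here. The share of cells without the deletion in each piece of tissue was not measured.

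**Figure D1:**
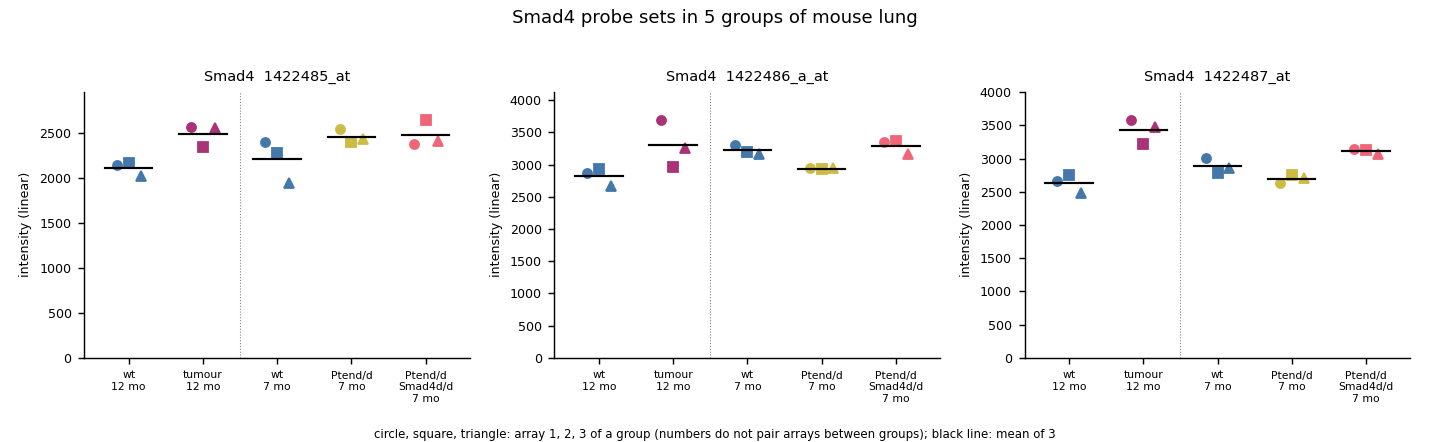
Deposited intensity (linear scale, from 0) of the 3 Smad4 probe sets on each of the 15 arrays; circles, squares and triangles are arrays 1, 2 and 3 of a group and black lines are group means. No group labelled Ptend/dSmad4d/d lies below its wildtype group, and the tumours lie above wildtype of 12 months in all 3 panels.

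Among the receptor-regulated SMADs of the TGF-beta branch, neither Smad2 nor Smad3 was called in any comparison. Smad2 probe set 1420634_a_at lay between 442 and 537 on all 15 arrays. In the tumours it differed from wildtype by -0.01 ± 0.08 (adjusted p = 0.937). At 7 months it read 465, 442 and 452 in Ptend/d lung and 501, 512 and 537 in Ptend/dSmad4d/d lung, with no overlap (0.18 ± 0.07, adjusted p = 0.246). The second Smad2 probe set, 1442062_at, lay between 162 and 271 and its groups overlapped in every comparison.

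Smad3, which binds DNA itself through the same domain that Smad4 uses, was best read by 1454960_at. That probe set read 667, 643 and 609 in wildtype lung of 12 months and 780, 755 and 763 in the tumours. The tumour arrays were all higher, by 0.26 ± 0.08 (1.19-fold), and the adjusted p of 0.0946 missed the threshold. It passed with an added constant of 64 in place of 16 (adjusted p = 0.0383) and in a common fit of all 15 arrays (adjusted p = 0.0242), and reached 0.409 with sex as a block. At 7 months Smad3 1454960_at lay between 578 and 687 in all 3 groups, which overlapped. The other 2 Smad3 probe sets were dim: 1450471_at read 10.02 to 27.8, near the added 16, and 1450472_s_at read 39.6 to 53.3 at 12 months and 82.7 to 140.5 at 7 months. Age and array set cannot be told apart in that last gap.

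The BMP-branch SMADs gave no call either, but at 7 months Ptend/d lung was the lowest group in all 3 Smad1 probe sets. Smad1 1459843_s_at read 1583, 1509 and 1427 in wildtype lung, 1256, 1212 and 1302 in Ptend/d lung and 1330, 1360 and 1624 in Ptend/dSmad4d/d lung. Ptend/d lay below wildtype on every array, by -0.26 ± 0.09 (adjusted p = 0.110), and was called with a variance trend and robust fitting (adjusted p = 0.0471, within 0.0471 to 0.265 over all settings). The other Smad1 probe sets gave -0.22 (1416081_at) and -0.21 (1448208_at) without overlap, with adjusted p of 0.234 and 0.267.

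Against Ptend/d, Ptend/dSmad4d/d lung was higher in Smad1 1416081_at, at 638, 674 and 736 against 570, 476 and 555 (0.35 ± 0.11, 1.27-fold, adjusted p = 0.156). The values for 1459843_s_at and 1448208_at were 0.19 (adjusted p = 0.347) and 0.14 (adjusted p = 0.574). Array 3 of the Ptend/dSmad4d/d group was the highest of its group in all 3, and without it these differences were 0.29, 0.10 and 0.01. Both comparisons share the Ptend/d arrays. Against wildtype, the Smad1 differences of Ptend/dSmad4d/d lung were 0.13, -0.07 and -0.07, with overlapping groups. In the tumours the 3 Smad1 probe sets read 0.08 to 0.18 above wildtype on the log2 scale, with adjusted p from 0.285 to 0.611.

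Smad5 1451873_a_at read 140, 146 and 142 in Ptend/d lung and 168, 163 and 206 in Ptend/dSmad4d/d lung (0.29 ± 0.10, adjusted p = 0.187). Without array 3 of the Ptend/dSmad4d/d group the Smad5 difference was 0.19. The brightest Smad5 probe set, 1433641_at, lay between 1198 and 1513 on all 15 arrays with overlapping groups in every comparison. Smad5 1421047_at read 231, 252 and 234 in wildtype lung of 12 months and 204, 208 and 225 in the tumours (-0.16 ± 0.09, adjusted p = 0.284). Smad9, also known as Smad8, read 1 to 16.6, near or below the added constant of 16, so its differences carry little information.

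**Figure D2:**
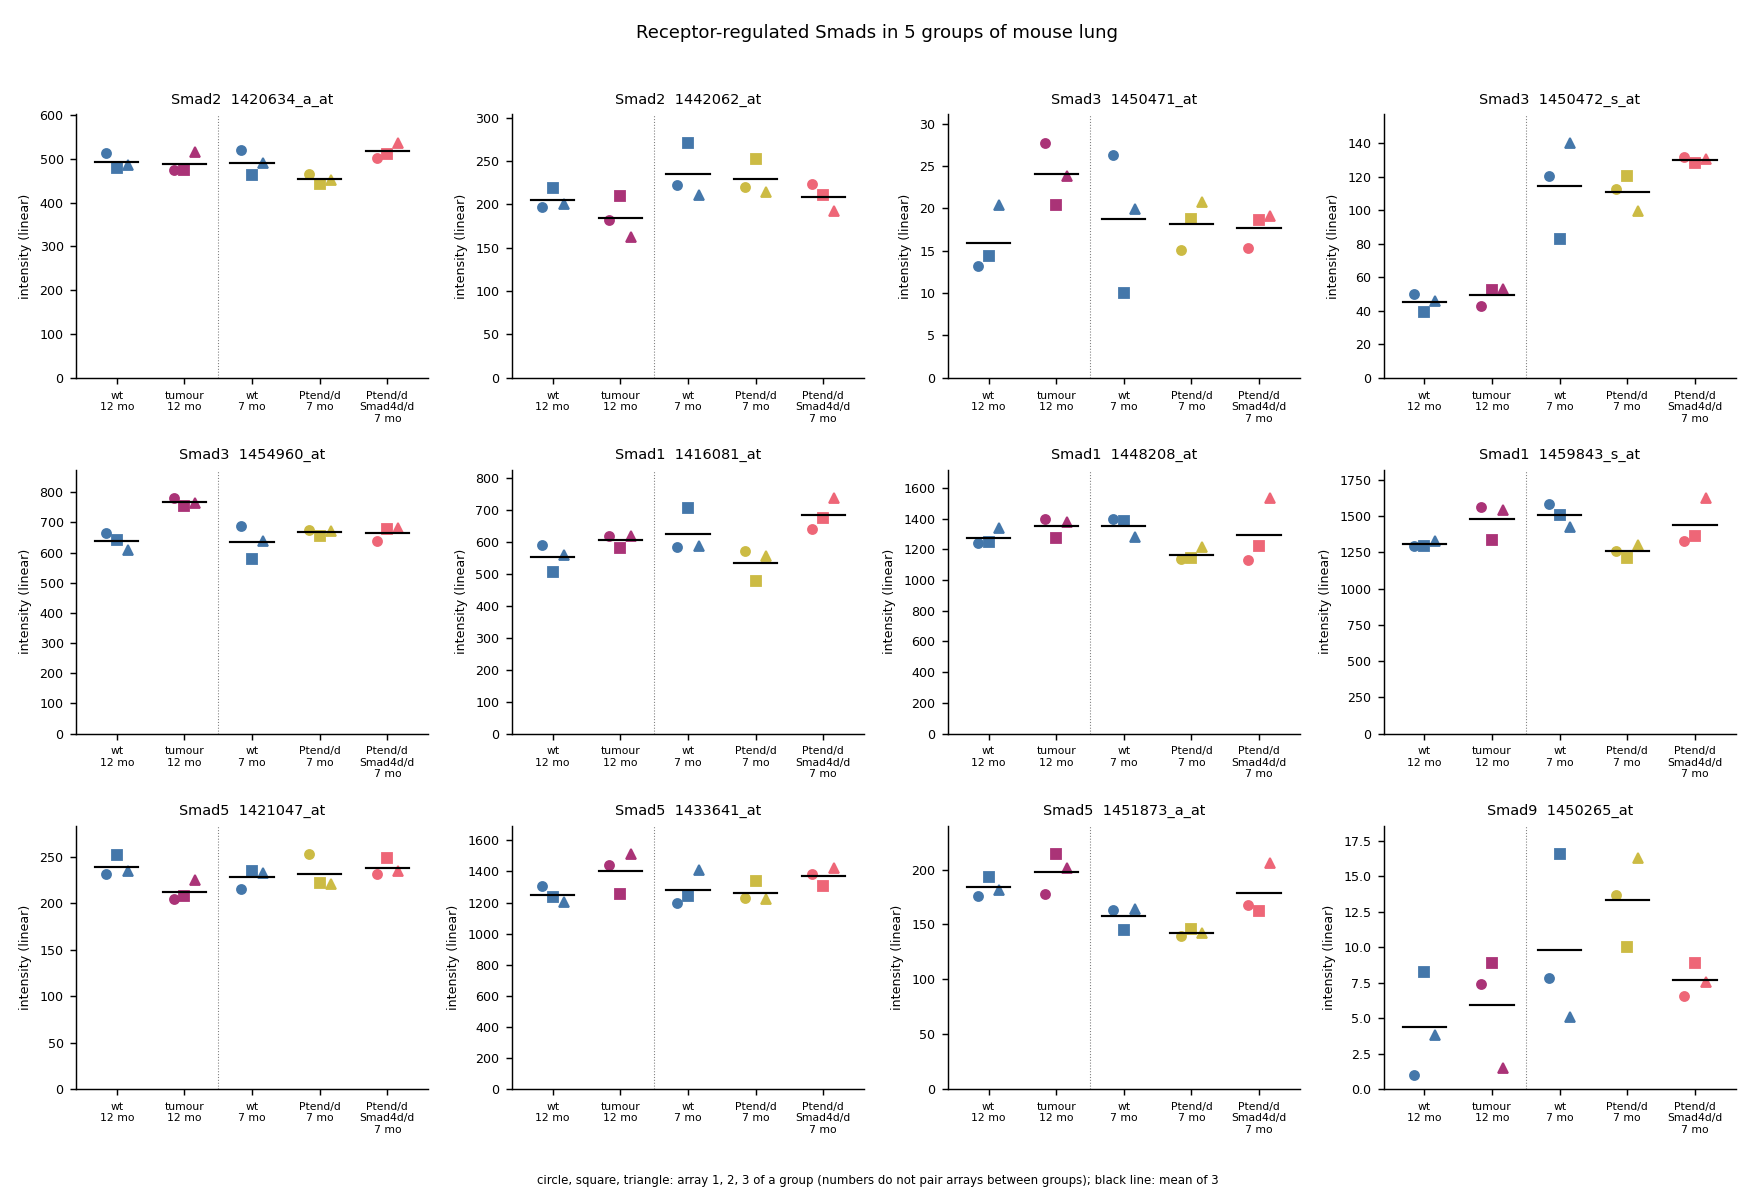
Deposited intensity (linear scale, from 0, with its own axis in each panel) of the 12 probe sets of Smad1, Smad2, Smad3, Smad5 and Smad9 on each array; symbols are arrays 1, 2 and 3 and black lines are group means. Smad3 1454960_at is higher on all tumour arrays, the Smad1 probe sets are lowest in Ptend/d lung, and Smad9 stays at or below 16.6.

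The inhibitory SMADs had the largest differences of the family, and in the tumours they lay lower on every array, short of the threshold. Smad6 (1422771_at) read 1751, 1175 and 804 in wildtype lung of 12 months and 467, 749 and 372 in the tumours. The highest tumour value lay just under the lowest wildtype value. The log2 difference was -1.20 ± 0.35, or 2.29-fold lower, with a 95% interval of -2.03 to -0.37 and an adjusted p of 0.0767. Smad6 passed in 2 of 17 settings, a common fit of 15 arrays (adjusted p = 0.0107) and without tumour 2 (adjusted p = 0.0453), and its adjusted p reached 0.371 with sex as a block.

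Smad7 gave the same order in both probe sets. Probe set 1423389_at read 1592, 1486 and 1110 in wildtype lung and 746, 999 and 660 in the tumours (-0.79 ± 0.20, 1.73-fold lower, adjusted p = 0.0522). Probe set 1443771_x_at read 1921, 1680 and 1266 in wildtype lung and 1050, 1141 and 812 in the tumours (-0.68 ± 0.19, 1.60-fold lower, adjusted p = 0.0733). Neither pair of groups overlapped. The Smad7 calls depended on the setting: 1423389_at passed in 9 of 16 and 1443771_x_at in 4 of 17, and all values kept their sign, between -0.96 and -0.67 and between -0.85 and -0.54. With sex as a block the differences of Smad7 were -0.90 and -0.75, and neither probe set was called. The tumours are in effect compared there with the 1 wildtype array of their sex pattern. The fit against that array alone therefore gave the same values. That fit is among the passing settings of both probe sets, with a spread taken from the tumours and the 7-month arrays. The common fit of 15 arrays, which also passed for both, used the spread of the 7-month arrays too.

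At 7 months Smad6 read 2418, 2481 and 2012 in wildtype lung, 2319, 2169 and 1837 in Ptend/d lung and 2229, 1961 and 1202 in Ptend/dSmad4d/d lung. The groups overlapped, and array 3 of Ptend/dSmad4d/d stood apart at the low end. The log2 difference from wildtype was -0.13 ± 0.21 for Ptend/d (adjusted p = 0.768) and -0.40 ± 0.21 for Ptend/dSmad4d/d (adjusted p = 0.354). Without array 3 the second Smad6 value was -0.13, and the value against Ptend/d went from -0.27 to -0.01.

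Smad7 1423389_at read 1785, 1544 and 1709 in wildtype lung, 1542, 1602 and 1614 in Ptend/d lung and 1659, 1380 and 1149 in Ptend/dSmad4d/d lung. The groups overlapped, and Ptend/dSmad4d/d differed from wildtype by -0.28 ± 0.12 (adjusted p = 0.267). Smad7 1443771_x_at differed by -0.36 ± 0.13 (1.29-fold lower, adjusted p = 0.162). Array 1 of Ptend/dSmad4d/d was the highest of its group in both probe sets. Without it the Smad7 1443771_x_at difference was -0.50 and was called (adjusted p = 0.0477), and without array 3 it was -0.24 (adjusted p = 0.362). Against Ptend/d, Smad7 1443771_x_at was lower on all 3 arrays, by -0.32 ± 0.13 (adjusted p = 0.260), and 1423389_at gave -0.20 ± 0.12 (adjusted p = 0.472).

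The summed endothelial and alveolar type 1 markers were lower in the tumours, as Smad6 and Smad7 were. The summed intensity of 20 endothelial markers was 43718, 40818 and 38101 on the wildtype arrays of 12 months and 21770, 28117 and 17058 on the tumour arrays. Tumour 2 was the highest and tumour 3 the lowest tumour in this sum, in Smad6 and in both Smad7 probe sets. Among the 20 markers, 0 rose and 14 fell in the tumours, with a median log2 difference of -0.99. Tie1, an endothelial receptor kinase, fell by 1.24 (adjusted p = 0.0104), whereas Cdh5, the endothelial cadherin, read 3362, 3383 and 2901 in wildtype lung and 2741, 3331 and 3444 in the tumours (-0.02, adjusted p = 0.924), with tumour 3 highest. Over all 18193 genes, each read by its brightest probe set, 9.23% rose and 6.02% fell in the tumours. The marker calls were lost with sex as a block, which sets the tumours in effect against the lone wildtype array of their sex pattern.

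At 7 months the endothelial sum was 57295 to 58254 in wildtype lung, 46425 to 49303 in Ptend/d lung and 50137, 48097 and 40585 in Ptend/dSmad4d/d lung, where array 3 was again the lowest. In Ptend/d lung 0 of these markers rose and 7 fell (median -0.26), where 9.79% of all genes rose and 5.4% fell, while Smad6 differed there by -0.13. In Ptend/dSmad4d/d lung 0 rose and 5 fell (median -0.33), where 6.42% of all genes rose and 1.39% fell. Between the 2 genotypes limma called 0 of them, where 0.918% of all genes rose and 0.841% fell. The summed alveolar type 1 markers had the same tumour order (30820, 39904 and 23788), as did the alveolar type 2 markers (69109, 85763 and 57244), and array 3 of Ptend/dSmad4d/d was the lowest of its group in both (46714 and 82234). Between groups the alveolar type 2 sum did not follow Smad6 and Smad7. At 7 months it was 82234 to 84781 in Ptend/dSmad4d/d lung, above the 76537 to 80094 of wildtype lung. Tumour 2 lay above the wildtype arrays of 12 months (80729 to 85046). The defining endothelial markers Pecam1, Cdh5 and Erg were above 184 on every array. The part of these cell types in the Smad6 and Smad7 differences was not tested.

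Other cell type markers moved as well. In the tumours 11 of 11 ciliated, 6 of 7 basal and squamous and 8 of 8 cardiac muscle markers rose, and 5 of 10 macrophage markers (median log2 difference -0.99) and 2 of 10 alveolar type 1 markers fell. Ciliated markers rose in 11 of 11 cases in Ptend/d lung and 10 of 11 in Ptend/dSmad4d/d lung at 7 months. The basal and squamous sum was 521, 966 and 1106 in Ptend/dSmad4d/d lung, highest on array 3, against 322 to 356 in wildtype and 324 to 370 in Ptend/d lung. Their part in any SMAD difference was not tested.

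**Figure D3:**
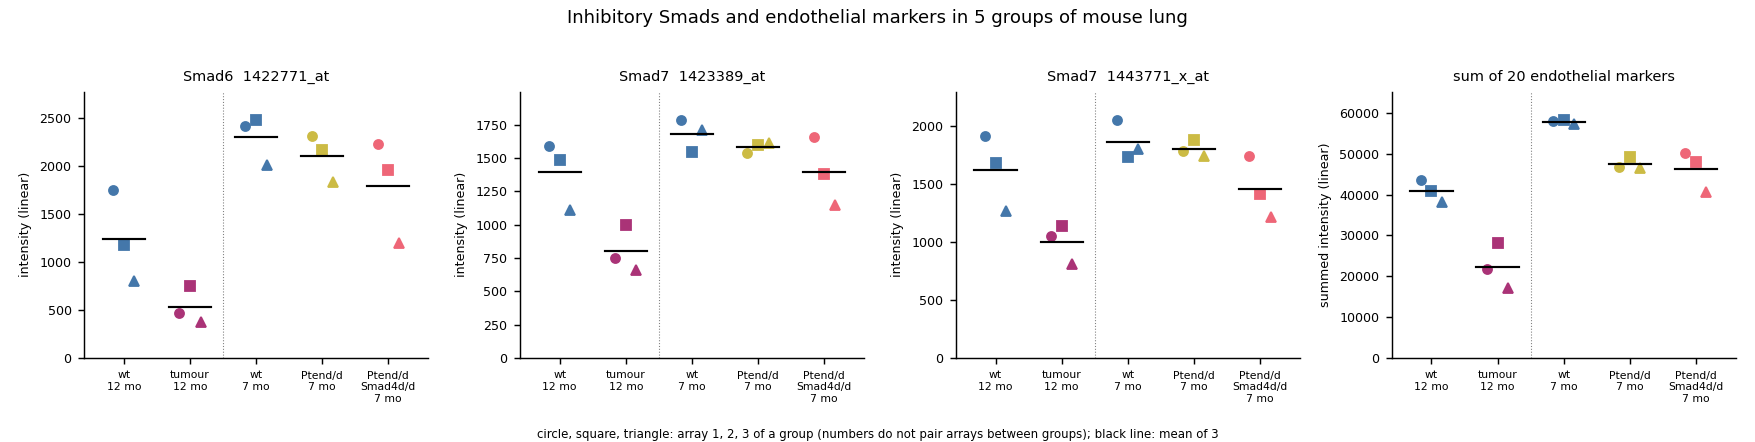
Deposited intensity (linear scale, from 0) of Smad6 and of both Smad7 probe sets on each array, and in the last panel the summed intensity of 20 endothelial markers; symbols are arrays 1, 2 and 3 and black lines are group means. In the tumours all 4 panels lie below wildtype of 12 months with tumour 2 highest, and array 3 is the lowest Ptend/dSmad4d/d array of 7 months in all 4.

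Because Smad6 had the largest difference of the family, the 250 bases before its start are shown, from the RefSeq table of assembly GRCm38.p6 (chr9:64022060-64022309, minus strand, 5′ to 3′). Capitals would mark a match to the motifs searched, which are named below, and this window has no such match. Other SMAD-binding sequences, including shorter ones, were not searched.
Smad6: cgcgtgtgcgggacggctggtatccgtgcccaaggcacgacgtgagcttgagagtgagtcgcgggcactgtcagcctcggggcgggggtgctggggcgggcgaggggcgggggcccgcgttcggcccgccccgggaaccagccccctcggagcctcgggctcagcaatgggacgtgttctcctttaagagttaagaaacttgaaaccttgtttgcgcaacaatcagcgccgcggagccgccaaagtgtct

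The motifs searched on both strands, which do not overlap each other, were GGCGCC, the short box CAGAC and the palindrome GTCTAGAC. Of 32851 RefSeq windows of that length, 9.59% held GGCGCC, 42.2% held CAGAC and 0.167% held GTCTAGAC. The table matched 5 of the 8 SMAD genes with 7 windows. GGCGCC stood in 1 of 3 Smad5 windows and in the Smad9 window, CAGAC in another Smad5 window, and the Smad1, Smad3 and Smad6 windows held none of these letters.

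Counted over the family, calls were no more frequent than over all probe sets. In the tumours 1 of 18 SMAD probe sets was called, against 11.2% of all 34945. An unadjusted p under 0.05 was reached by 7 of 18, against 27.4% of all. The tumour and wildtype arrays did not overlap in 10 of 18, with 6 higher and 4 lower, against 33.6% of all. The median difference was 0.10 over the SMAD probe sets and 0.00 over all.

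In Ptend/d lung limma called 0 of 18, against 11.4% of all probe sets. The unadjusted p was under 0.05 for 1 of 18 (25.8% of all), and 5 of 18 did not overlap with wildtype, all of them lower (31.9% of all). In Ptend/dSmad4d/d lung of 7 months limma also called 0 of 18 against wildtype (4.71% of all). The unadjusted p was under 0.05 for 1 (19.4% of all), and 1 did not overlap, Smad4 1422487_at (22.7% of all). The smallest adjusted p was 0.110 for Ptend/d and 0.162 for Ptend/dSmad4d/d.

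Between Ptend/dSmad4d/d and Ptend/d lung, limma called 0 of 18, where 1.51% of all probe sets were called. The unadjusted p was under 0.05 for 6 of 18, against 16.8% of all, and 9 of 18 did not overlap, with 7 higher and 2 lower, against 26.5% of all. The 6 with the smaller p were Smad4 1422486_a_at and 1422487_at, Smad2 1420634_a_at, Smad1 1416081_at and Smad5 1451873_a_at, which were higher, and Smad7 1443771_x_at, which was lower. Probe sets of 1 gene share transcripts and are not independent.

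The difference between the tumour effect and the Ptend/dSmad4d/d effect at 7 months, each against its own wildtype, was called for 0 of 18 SMAD probe sets (2.3% of all). Its unadjusted p was under 0.05 for 2, against 17.1% of all: Smad4 1422487_at (0.27 ± 0.10, adjusted p = 0.173) and Smad7 1423389_at (-0.52 ± 0.24, adjusted p = 0.291). For Smad6 it was -0.80 ± 0.42 (adjusted p = 0.362). The larger Smad6 and Smad7 differences in the tumours are therefore not shown to differ from those at 7 months.

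**Figure D4:**
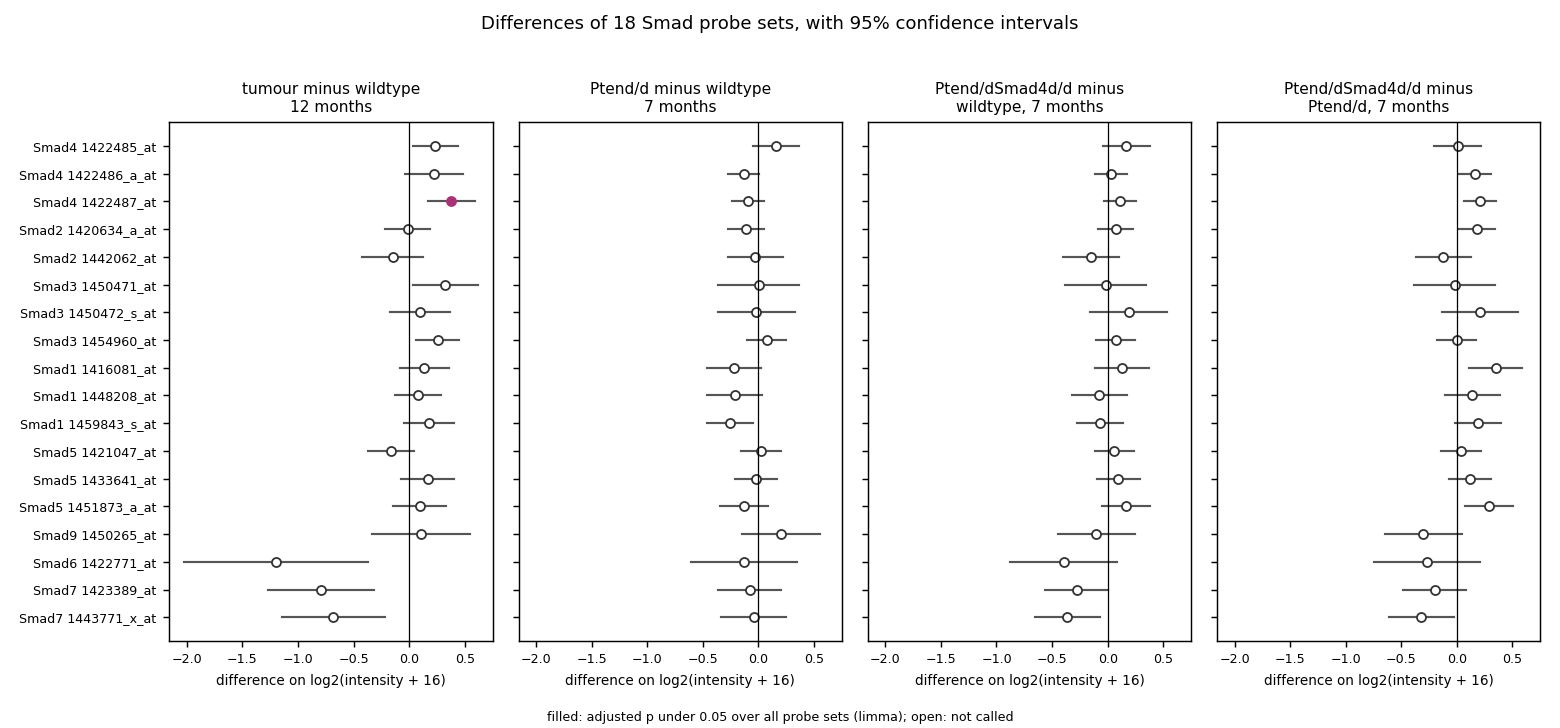
Difference of each of the 18 SMAD probe sets on the log2(intensity + 16) scale in 4 comparisons; circles are limma estimates, bars are 95% confidence intervals and a filled circle marks an adjusted p under 0.05. The 1 filled circle is Smad4 1422487_at in the tumours, and the Smad6 and Smad7 intervals lie below 0 there.

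The rest of the pathway was described from lists of ligands, receptors, regulators, partners and targets, with 1 probe set per gene. In the tumours, where 9.23% of all genes rose and 6.02% fell, 0 of 15 ligands rose and 3 fell. The calls in the tumours depend on the fit, and all those in these 5 lists were lost with sex as a block. Of the 3 wildtype arrays, 2 had the other sex pattern, so that fit sets the tumours in effect against 1 wildtype array. It therefore cannot tell an effect of the sex pattern from having too few arrays, and the part of sex was not tested. Tgfb1 fell by 0.98 on the log2 scale (adjusted p = 0.0189), Bmp6 by 1.40 (adjusted p = 0.0232) and the activin subunit Inhba by 1.39 (adjusted p = 0.0376). Among 17 receptors 1 rose and 3 fell. The BMP type I receptor Bmpr1b rose by 1.28 (adjusted p = 0.0151), while the type II receptors Acvr2b and Bmpr2 fell by 0.65 (adjusted p = 0.0112) and 0.72 (adjusted p = 0.0291).

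Of 22 SMAD regulators 1 rose and 4 fell in the tumours. Pml, a nuclear body protein with a role in TGF-beta signalling, rose by 1.19 (adjusted p = 0.0192), and the SMAD-binding repressors Zeb2 and Zeb1 fell by 0.76 (adjusted p = 0.0202) and 0.72 (adjusted p = 0.0214). Of 14 partner factors Runx1 rose, by 0.69 (adjusted p = 0.0185), and Jun fell, by 0.60 (adjusted p = 0.0462). Of 23 target genes 4 rose and 2 fell. Pmepa1, a TGF-beta target that restrains the pathway, rose by 0.61 (adjusted p = 0.00967), Tgfbi by 0.62 (adjusted p = 0.0108) and the inhibitor-of-differentiation gene Id4 by 1.40 (adjusted p = 0.0137). The median log2 difference was 0.23 over the ligands, -0.13 over the receptors, -0.18 over the regulators, -0.03 over the partners and 0.03 over the targets, against 0.01 over all genes.

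In Ptend/d lung, with the shares over all genes given above, 0 ligands rose and 1 fell, Tgfb1 (by 0.33, adjusted p = 0.0373). Of the receptors 2 rose, Bmpr1b (by 1.21, adjusted p = 0.000377) and the activin receptor-like Acvr1c (by 0.54, adjusted p = 0.0114), and the co-receptor Tgfbr3 fell (by 0.51, adjusted p = 0.00367). Of the regulators 0 rose and 4 fell, among them the latent TGF-beta binding protein Ltbp1 (by 0.52, adjusted p = 0.00168), the repressor Skil (by 0.25, adjusted p = 0.0196) and the SMAD phosphatase Ppm1a (by 0.23, adjusted p = 0.0317). Of the partners Runx1 rose (by 0.27, adjusted p = 0.0410) and the coactivator Ep300 fell (by 0.22, adjusted p = 0.0452). Of the 23 targets 2 rose and 3 fell, with a median log2 difference of -0.10.

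In Ptend/dSmad4d/d lung of 7 months 0 of 23 targets (median log2 difference -0.05) and 0 of 15 ligands were called against wildtype by limma. Bmpr1b rose by 0.76 (adjusted p = 0.00488) and Runx1 by 0.43 (adjusted p = 0.00968). Tgfbr3 fell by 0.42 (adjusted p = 0.0137) and Ltbp1 by 0.39 (adjusted p = 0.00983). No other gene of the 5 lists was called there by limma.

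Target genes were called in the comparison of both genotypes, in which 0.918% of all genes rose and 0.841% fell. There 1 of 23 targets rose and 2 fell, with a median log2 difference of 0.08. Ccn2, a matrix-associated TGF-beta target, was 0.45 below wildtype in Ptend/d lung (-0.45, adjusted p = 0.00495) and 0.39 higher in Ptend/dSmad4d/d than in Ptend/d lung (adjusted p = 0.0458). Cdkn2b, a cell-cycle inhibitor induced by TGF-beta, was 0.58 above wildtype in Ptend/d lung (adjusted p = 0.00705) and fell by 0.52 from Ptend/d to Ptend/dSmad4d/d lung (adjusted p = 0.0485). Id2, a BMP target, was 0.38 above wildtype (adjusted p = 0.0231) and fell by 0.46 (adjusted p = 0.0457). These comparisons share the Ptend/d arrays. Of the partners, Gata4 rose by 0.79 (adjusted p = 0.0212), and 0 of the ligands, receptors and regulators were called.

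Over the 15 arrays the genes whose log2 intensity ran most like that of Smad4 1422486_a_at were Usp2 (r = 0.888), Senp6 (r = 0.870) and Pgrmc2 (r = 0.854), among 11115 genes searched. Without the 2 arrays farthest from the median of Smad4 these were 0.839, 0.721 and 0.777. For Smad6, which was added to this search after its values were seen, they were Myh10 (r = 0.978), Efnb2 (r = 0.977) and Igfbp2 (r = 0.975). The 15 arrays share 2 ages and 5 groups, so these values describe the order of arrays and were not tested.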

How the data were processed

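RNA of 15 mouse lung samples was measured on single-colour Affymetrix arrays from 250 ng of total RNA each, per the labels' protocols. The authors deposited a linear intensity for each probe set and array, from 0.48 to 17030. Background correction, summarization and scaling are not stated in the sources used here. Of 45101 probe sets, 34945 carried 1 symbol in the platform annotation after Affymetrix controls were removed, and 932 carried several and were left out.

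Intensities were transformed as log2(intensity + 16) and fitted with limma 3.58.1 (lmFit and eBayes, two-sided) in R 4.3.3. The 6 arrays of 12 months and the 9 of 7 months were fitted separately, and the difference between ages over all 15. P-values were adjusted by Benjamini-Hochberg over all probe sets. Pathway and marker lists used the probe set with the highest mean per gene, adjusted over 18193 genes. Fold changes understate those of dim probe sets. Intervals are for 95% confidence.

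All SMAD probe sets are named. Up to 3 called genes per list, by smallest adjusted p, were named, and the genes most like Smad4 by Pearson correlation were taken among genes with a mean log2 value of at least 7. The members and lists were chosen with earlier results of these data known. The 7-month labels give replicate numbers and no animals, and 1 tumour has no animal number, so p-values measure the spread between these samples, which may be technical. No 2 arrays held identical values. The fit was tested on simulated data. Alternatives were other scalings, filters, variance models, array weights, constants, samples in the fit, sex patterns and leaving out each array.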

Additional observations from a re-analysis of the deposited data

Results flagged for a closer look

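Smad5 1421047_at had differences of opposite sign at the 2 ages. Its tumour effect minus its Ptend/dSmad4d/d effect at 7 months was -0.22 ± 0.11 (SE) on the log2 scale, with a limma adjusted p of 0.322. All 3 tumours lay below the wildtype mean of 12 months and all 3 Ptend/dSmad4d/d lungs above the wildtype mean of 7 months, which is what singled it out. The test of the difference missed the threshold, and the value lay between -0.26 and -0.18 over 19 settings.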

How the results depend on the processing

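Of 1524 SMAD values recomputed under alternatives, 1495 kept their direction and side of the threshold or had no call to lose, 9 lost a call, 20 gained one and 0 called values reversed. A sign change without a call occurred in 63, none with a main value above 0.11 in size. In the tumours the count of called SMAD probe sets, 1 as reported, was 0 with an added constant of 1, with 1 probe set per gene and with sex as a block, 2 with quantile normalization, with array weights and against wildtype of the same sex pattern, 3 without dim probe sets, with a variance trend and with a constant of 64, 5 in a common fit of 15 arrays, and 0 to 3 when an array was left out. A variance trend with robust fitting gave 1 call in Ptend/d against wildtype and 1 in Ptend/dSmad4d/d against Ptend/d, and leaving out arrays gave 0 to 1 in Ptend/dSmad4d/d against wildtype. The cause was not tested. The fit against wildtype of the same sex pattern holds 1 wildtype array of 12 months and takes its spread from the other groups.

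The count over all probe sets moved too. In the tumours it was 3908, with 670 (without wildtype 3) to 4831 when an array was left out, 0 with sex as a block and 7658 in the common fit. It was 3988 for Ptend/d (2209 to 4959), 1647 for Ptend/dSmad4d/d (848 to 2500), 527 between both (195 to 1220) and 804 between ages (394 to 2727). Median centring moved the median of all probe sets by at most 0.05 in any comparison. Precision is limited by having 3 arrays in each group. With sex as a block, the tumours are in effect set against the lone wildtype array of their sex pattern.

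Arrays of 1 replicate number at 7 months deviated together in 1 of 9 pairs (correlations -0.13 to 0.14), and 4 arrays lay nearest to their own number. With the replicate number as a block 0 SMAD probe sets were called in each 7-month comparison, and 3243, 1295 and 377 of all probe sets.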
